A study of Gallus gallus with 20 samples.

Results

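In the ileum of broiler chickens, 57 of 24356 measured genes met a rule for lower levels in every avilamycin bird than in every control bird. They are described here as a set, and some of them one by one. They were chosen by their measured levels. For each bird the counts of its libraries were summed and scaled to CPM, the counts a gene would have if the bird's total were 1000000. A gene became a member when its mean over 10 birds lay from 1 to under 1000 CPM, when its highest avilamycin bird was below its lowest control bird, and when its avilamycin mean was at most 0.8 times its control mean. The contrast of the groups is therefore what chose the members. Their group differences are given as a description, and no test of that contrast is read as support for them.

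The birds were aged 35 days. The labels put birds A3, A4, A5, A6 and A7 in a group named Control and birds D2, D3, D4, D5 and D7 in a group named Avilamycin, with 2 technical libraries a bird and 20 in all. The summed counts of a bird ranged from 31130907 to 45371754. The sources used here give no dose, duration, strain, sex or housing, so avilamycin and a pen shared by a group cannot be told apart. The libraries were sequenced in 2 runs, and which run held which library is not in the labels, so the part of the run in the results was not tested.

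The ileum is the last part of the small intestine, where the remaining nutrients and most bile acids are taken up and where a dense mucosal immune system faces the gut bacteria. Avilamycin is an oligosaccharide antibiotic that binds the large subunit of the bacterial ribosome and acts on Gram-positive bacteria; poultry have received it in feed to promote growth. The study asked how such feeding relates to gene expression in the host's intestine. A piece of ileum holds many cell types, so a lower value can mean fewer cells of a type or less RNA per cell, and these cannot be told apart.

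Genes carry only Ensembl IDs in the deposited table. Of 25635 genes in the RefSeq table at hand 0 have such an ID, so that no member was given a gene name, a function or a sequence, and the tissue label could not be checked against its marker genes. Only the IDs of the member with the lowest ratio and of the most abundant member are printed. The others are called by their rank among the 57, where rank 1 by ratio is the lowest avilamycin mean relative to control and rank 1 by level is the highest mean CPM.

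Of 13407 genes in the level range of the rule, 127 (0.947%) had all avilamycin birds below all control birds. In 57 of these the ratio of means was at most 0.8, and in the remaining 70 it was above. A ratio of at most 0.8 alone, with the birds of the groups allowed to overlap, was met by 920 genes. In the opposite direction, 121 genes (0.903%) had all control birds below all avilamycin birds, and 73 met the mirrored rule. The numbers in the 2 directions were thus of similar size, and nothing is read from the count of 57 itself.

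The members at the limit were close to genes left out. The member with the highest ratio, rank 57, had a control mean of 34.7 CPM and an avilamycin mean of 27.7 CPM, a ratio of 0.7997. The gene just outside had 9.03 and 7.22 CPM, a ratio of 0.8001. Where the ratio was low enough but the groups overlapped, the nearest gene had a lowest control bird at 0.9987 times its highest avilamycin bird.

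Most members differed moderately between the groups and a few differed by several times. The avilamycin mean was 20.0% to 78.2% below the control mean, with a median of 32.1%. For 11 members it was at most 0.5 times the control mean, for 46 it was above that. The 10 members with the lowest ratios had control means 2.57 to 4.59 times their avilamycin means, whereas the median over the 57 was 1.47 times.

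**Figure D1:**
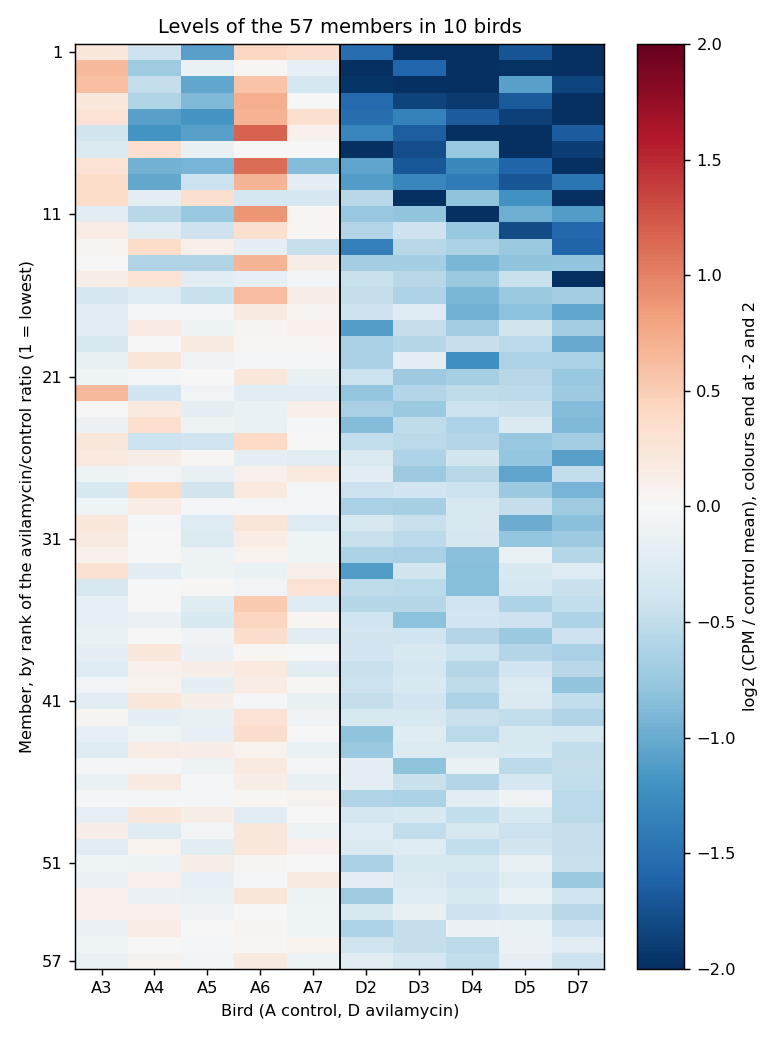
Level of each of the 57 members (rows, rank 1 by ratio at the top) in each of the 10 birds (columns), as log2 of the CPM over the mean of the 5 control birds of that member, with colours ending at -2 and 2. The blue field right of the line is fixed by the choice of the members. The rows are ordered by the ratio that the rule used, so the deeper blue of the top 11 rows follows from that order. The red of bird A6 in several of these rows is not fixed by the choice of the members. A high control bird does help a gene to meet the ratio limit.

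ENSGALG00000049923 had the lowest ratio of all members. In control birds A3, A4, A5, A6 and A7 it was at 15.6, 10.1, 6.29, 17.7 and 17.1 CPM, and in avilamycin birds D2, D3, D4, D5 and D7 at 4.66, 2.60, 2.60, 4.06 and 0.639 CPM. Bird D7 was lowest by far and bird A5 stood nearest to the avilamycin group, at 1.35 times the level of D2. The mean was 13.4 ± 4.98 CPM over control birds and 78.2% lower, 2.91 ± 1.56 CPM, over avilamycin birds (SD, n = 5 each). The 2 libraries of a bird gave similar values in some birds, such as 10.4 and 9.77 CPM in A4, but in A5 they gave 7.33 and 5.04 CPM and in D5 5.13 and 3.29 CPM. They were farthest apart in D7, at 0.824 and 0.375 CPM from 22 and 7 counts. At the level of single libraries the groups of this gene therefore touched: 1 library of D5 lay above 1 library of A5.

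The member of rank 2 by ratio had the widest gap between the groups. It was at 33.5, 13.1, 19.4, 21.9 and 19.0 CPM in A3 to A7 and at 4.80, 7.11, 3.54, 5.41 and 2.75 CPM in D2 to D7. Its lowest control bird, A4, stood at 1.84 times its highest avilamycin bird, D3. The means were 21.4 ± 7.51 and 4.72 ± 1.69 CPM (SD, n = 5 each), 77.9% lower in avilamycin birds, from 125 to 1044 counts a bird. Rank 4 by ratio was the only other member with a gap above 1.5 times. Its control birds had 29.8, 17.1, 14.1, 42.7 and 25.6 CPM and its avilamycin birds 8.77, 7.20, 6.83, 8.10 and 3.50 CPM, with A6 highest and D7 lowest.

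Several of the members with low ratios were scarce. Rank 3 by ratio had 3.12, 1.47, 0.991, 3.04 and 1.60 CPM in control birds and 0.527, 0.262, 0.356, 0.964 and 0.573 CPM in avilamycin birds, from 11 to 133 counts. Bird A5 and bird D5 were nearly level. Rank 7 had even control values of 1.73, 2.68, 1.90, 2.13 and 2.14 CPM and avilamycin values of 0.422, 0.620, 1.25, 0.533 and 0.573 CPM, where D4 stood apart from the other 4 birds. Rank 10, the scarcest member of all, had 1.17 to 1.90 CPM in control birds and 0.176 to 1.00 CPM in avilamycin birds, and its lowest bird rested on 8 counts. Rank 6 ran from 0.846 CPM in A4 to 4.396 CPM in A6 among control birds and from 0.423 CPM in D4 to 0.790 CPM in D2 among avilamycin birds. Rank 8 was not among the scarce ones, with a mean of 11.1 CPM over the 10 birds. It was at 20.2, 8.54, 8.69, 35.8 and 9.06 CPM in control and at 7.93, 5.06, 6.76, 5.41 and 3.81 CPM in avilamycin birds. A4, A5 and A7 thus stood just above D2 in rank 8. In ranks 6 and 8 A6 was well above all other birds, and the gap between the nearest birds was small, 1.07 and 1.08 times. Rank 11, the last with a ratio under 0.5, had a gap of 1.00 times, with A5 and D2 both at 2.53 CPM.

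ENSGALG00000042151 was the most abundant member. It was at 942, 615, 613, 1495 and 1009 CPM in control birds A3 to A7 and at 579, 581, 498, 535 and 542 CPM in avilamycin birds D2 to D7. The avilamycin birds were close together, while the control birds fell into A4 and A5, which stood just above the avilamycin birds, and A3, A7 and A6, which stood well above. The means were 935 ± 362 and 547 ± 34.3 CPM (SD, n = 5 each), 41.5% lower in avilamycin birds, so that the coefficient of variation (SD over mean) was 38.8% in control and 6.28% in avilamycin birds. The gap between A5 and D3 was 1.05 times. No library of an avilamycin bird reached any library of a control bird, with 588 CPM as the highest of the one group and 601 CPM as the lowest of the other.

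**Figure D2:**
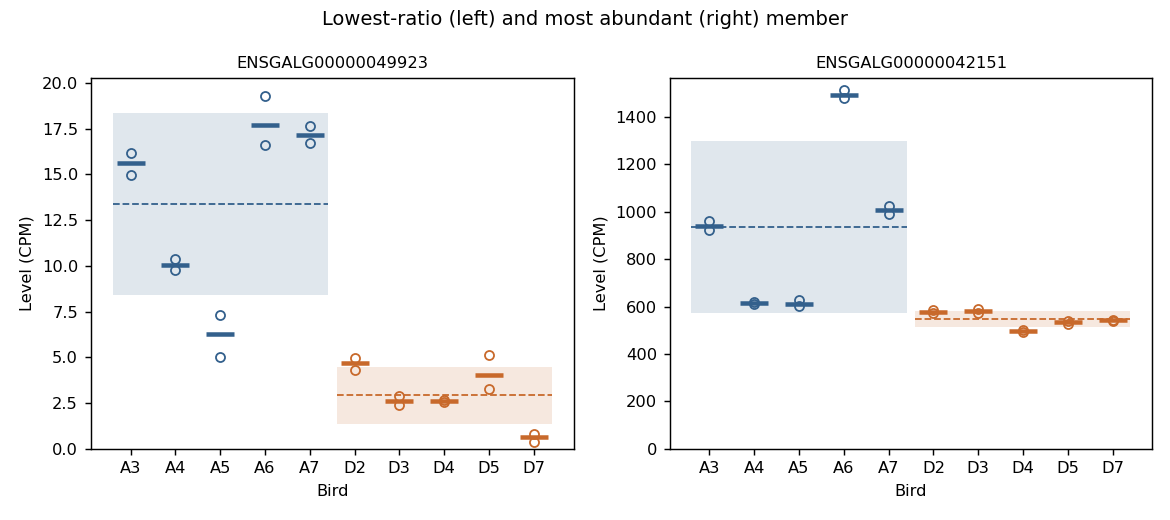
Level in CPM of ENSGALG00000049923 (left) and ENSGALG00000042151 (right) in each bird, where open circles are the 2 technical libraries, thick dashes the bird's summed value, dashed lines the group means and shaded bands 1 SD either side (n = 5 birds each). On the left D7 lies at 0.639 CPM; on the right A4 and A5 lie near the avilamycin birds and A6 at 1495 CPM far above.

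In the members of ranks 2, 3 and 4 by level A6 was again the highest control bird, while in rank 5 it was not. Rank 5 by ratio, rank 2 by level, was at 1361, 526, 490, 1807 and 1383 CPM in A3 to A7 and at 391, 434, 353, 306 and 159 CPM in D2 to D7, with means of 1113 ± 581 and 328 ± 106 CPM (SD, n = 5 each). Again A4 and A5 were the lowest control birds and A6 the highest. Rank 3 by level had 319, 340, 299, 624 and 443 CPM in control birds and 290, 264, 214, 243 and 252 CPM in avilamycin birds. Rank 4 by level had 179, 68.7, 104, 222 and 121 CPM in A3 to A7 and 64.0, 56.4, 52.0, 42.5 and 50.7 CPM in D2 to D7. Rank 5 by level had another order, with 87.5, 105, 95.1, 99.0 and 89.4 CPM in A3 to A7 and 62.4, 68.4, 87.5, 86.5 and 71.1 CPM in D2 to D7, where A3 and D4 were nearly equal.

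Members were scarcer than other genes of the level range. Their median mean level was 7.40 CPM, against 21.8 CPM over the 13407 genes. Of the members 61.4% had a mean under 10 CPM, against 31.6% of all genes in the range, and only 3 members reached 100 CPM. The part of counting error in this was not tested. For the 73 genes of the mirrored rule the median level was 23.7 CPM and the median ratio of means 1.47 times, against 1.47 times for the 57 in the opposite direction.

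**Figure D3:**
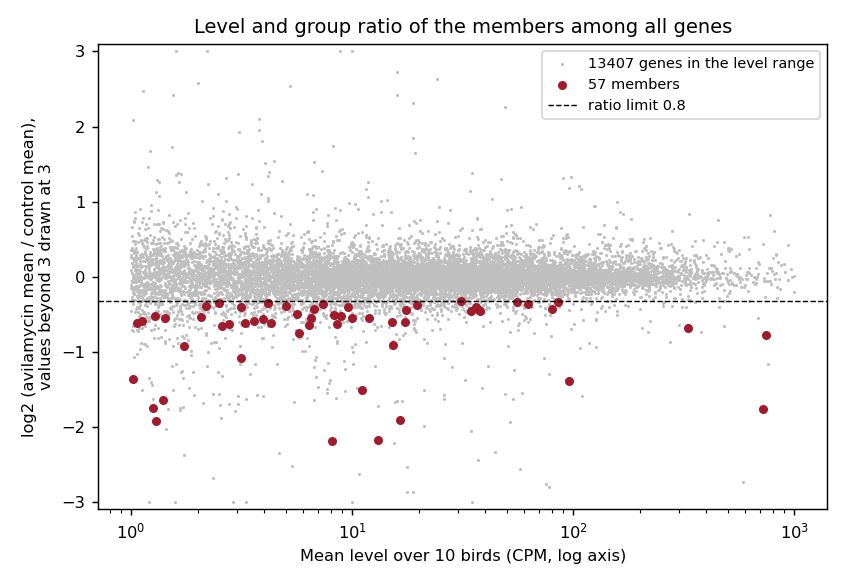
Mean level over 10 birds (CPM, log axis) against log2 of the avilamycin mean over the control mean for the 13407 genes of the level range (grey; values beyond 3 drawn at 3), with the 57 members in red and the ratio limit of 0.8 as a dashed line. Many grey points below the line are genes with a low ratio whose groups overlapped, and 3 members lie above 100 CPM.

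The separation between the nearest birds was narrow for most members. The lowest control bird stood at a median of 1.06 times the highest avilamycin bird, and for 42 members at less than 1.1 times. For 5 members the gap was above 1.2 times and for 2 above 1.5 times. With exact 95% Poisson intervals on the counts of these nearest birds, the intervals were apart for 6 members and overlapped for 51. The 6 were ranks 1, 2, 4, 5, 14 and 42 by ratio. These intervals cover counting error only. The gaps and intervals were not taken over the genes of the range. Since the rule required the nearest birds not to cross, these counts are a description. The smallest count of a member in a bird ranged from 8 to 21087 with a median of 159, and it was under 100 for 20 members.

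Single libraries overlapped for most members. All 10 avilamycin libraries lay below all 10 control libraries for 9 members, and for 12 of the 13407 genes of the range. Libraries that lie apart put the birds apart too, as the rule required, so these 2 counts are a description. The 2 libraries of a bird are not separate replicates of its group. The 9 were ranks 2, 4, 5, 14, 15, 24, 37, 40 and 42 by ratio. The 2 libraries of a bird differed by a median of 0.16 on the log2 scale (CPM plus 0.5) for members and by 0.11 for all genes of the range. Members were scarcer than these genes, and the 2 medians were not matched for level. Rank 42, for example, had 96.1, 80.9, 83.2, 113 and 88.3 CPM in control birds and 73.8, 73.8, 67.8, 65.3 and 60.6 CPM in avilamycin birds, a modest difference of 26.1% with libraries apart. Rank 24 had 19.3, 26.7, 19.7, 19.1 and 20.4 CPM in A3 to A7 and 11.6, 14.9, 13.7, 17.3 and 11.5 CPM in D2 to D7, 34.5% lower, with A4 above and D5 nearest to the control group. Rank 40 had 41.6, 45.3, 37.7, 48.1 and 44.0 CPM in A3 to A7 and 32.1, 35.0, 30.5, 35.8 and 25.2 CPM in D2 to D7. Its difference was 26.8%, and A5 stood at 1.05 times D5. Rank 21, the member of the fifth widest gap, 1.22 times, was even in both groups, at 4.68 to 6.09 CPM in control and 3.09 to 3.85 CPM in avilamycin birds, with coefficients of variation of 10.3% and 9.21%.

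Whether members differ between libraries of the same bird was tested across all genes, since the rule did not use that difference. EdgeR's quasi-likelihood test with bird in the model (Benjamini-Hochberg adjustment over 15613 genes, threshold 0.05) called 83 genes (0.532%) between technical library 2 and library 1. Of the 57 members 1 was called, which is 1.75%. It was rank 3 by level, with a mean of 294 CPM in the second and 356 CPM in the first libraries, a log2 difference of -0.24 with a standard error of 0.06 (adjusted p = 0.0393 by edgeR), and library 2 was lower in 8 of 10 birds. That call was lost with DESeq2, which called 50 genes and 0 members, and without birds A4, A6, A7, D2, D3 or D7, where no member was called. Other settings called more members. With no filter 3 of 57 were called, against 406 of 21471 genes. Without A3 it was 4 of 57, against 441 of 15669, and without A5 3 of 57, against 378 of 15560. Without D4 or D5 it was 2 of 57 each, against 160 of 15520 and 201 of 15554. At an unadjusted p under 0.05 there were 9 members (15.8%), against 13.2% of all genes.

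Control bird A6 was the highest control bird for more members than any other. It was highest for 26 of 57 members (45.6%), whereas it was highest of the control birds for 19.5% of the 13407 genes. Bird A5 was the highest for 2 members (3.51%, against 16.7% of all genes). It was the lowest control bird, the one nearest to the avilamycin group, for 20 members (35.1%, against 26.0%). Bird A3 was the lowest control bird for 17 members (29.8%, against 15.7%). Among avilamycin birds D7 was the lowest for 22 members (38.6%, against 22.6%) and the highest for 1 (1.75%, against 17.1%). Relative to each member's control mean, the median over the members was 94.6%, 99.2%, 92.7%, 111% and 98.7% in A3 to A7 and 67.6%, 68.9%, 67.1%, 69.3% and 61.7% in D2 to D7. The avilamycin birds were thus alike in this median, with D7 somewhat lower. A high control bird or a low avilamycin bird lowers the ratio of means that the rule used. The shares and medians of the birds are therefore a description.

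Some members varied together among birds of the same group. After each group's mean was taken from the log2 values, the correlation over 10 birds between pairs of members had a median of 0.161, against 0.020 for pairs of genes of the range. The median over pairs of members was 0.096 without A6 and 0.105 without D7, and that over pairs of the range was not taken without these birds. Of 1596 pairs of members 2.76% had a correlation of at least 0.8, against 0.987% of all pairs. These correlations are over the same 10 birds and libraries and are a description. A high control bird or a low avilamycin bird shared by members lowers their ratios of means. The choice of the members can therefore favour higher correlations among them than in the range, and nothing is read from the comparison. The member most like ENSGALG00000049923 was rank 4 by ratio, with a correlation of 0.91, followed by ranks 5, 52 and 40 with 0.83, 0.82 and 0.81. These 4 of the other 56 members (7.14%) reached 0.8, against 1.04% of the genes of the range. In ENSGALG00000049923 and in all 4, A5 was the lowest control bird and D7 the lowest avilamycin bird. The correlations with ENSGALG00000049923 were not taken with a bird left out. Between ENSGALG00000049923 and ENSGALG00000042151 the correlation was 0.517.

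A set of 8 members was formed from the most abundant one and those that varied like it within groups. Besides ENSGALG00000042151 itself, 7 of the other 56 members (12.5%) followed it within groups with a correlation of at least 0.8, against 2.11% of the genes of the range. They were ranks 5, 6, 9, 11, 16, 25 and 42 by ratio. Rank 6 was most like it, with a correlation of 0.97, then rank 25 with 0.92, and the lowest was rank 5 with 0.81. Rank 25 had 21.4, 13.6, 13.95, 24.2 and 18.4 CPM in A3 to A7 and only 10.8 to 13.1 CPM over D2 to D7. All 3 members above 100 CPM were in the set of 8. In each of the 8 bird A6 was the highest control bird, and either A4 or A5 was the lowest. The set was picked by this likeness after the values were seen. Without bird A6 the correlation reached 0.8 for 2 members instead of 7, and for 1.305% of the genes of the range. Without A4 it did so for 4 members and for 2.581% of the genes of the range.

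The values of the set of 8 in the birds follow from how it was picked, by likeness to a gene that varied among control birds, and are given as a description. The median coefficient of variation among control birds was 41.5% in the 8 and 12.7% in the 49, while among avilamycin birds it was 12.9% and 14.4%. Relative to the control mean, the median of the 8 was 102%, 67.1%, 69.6%, 160% and 104% in A3 to A7 and 60.5%, 60.0%, 44.5%, 54.0% and 51.8% in D2 to D7. For these members A4 and A5 were thus nearer to the avilamycin birds D2 and D3 than to A6. In the other 49 the medians were 93.6% to 105% in control and 63.5% to 73.1% in avilamycin birds.

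**Figure D4:**
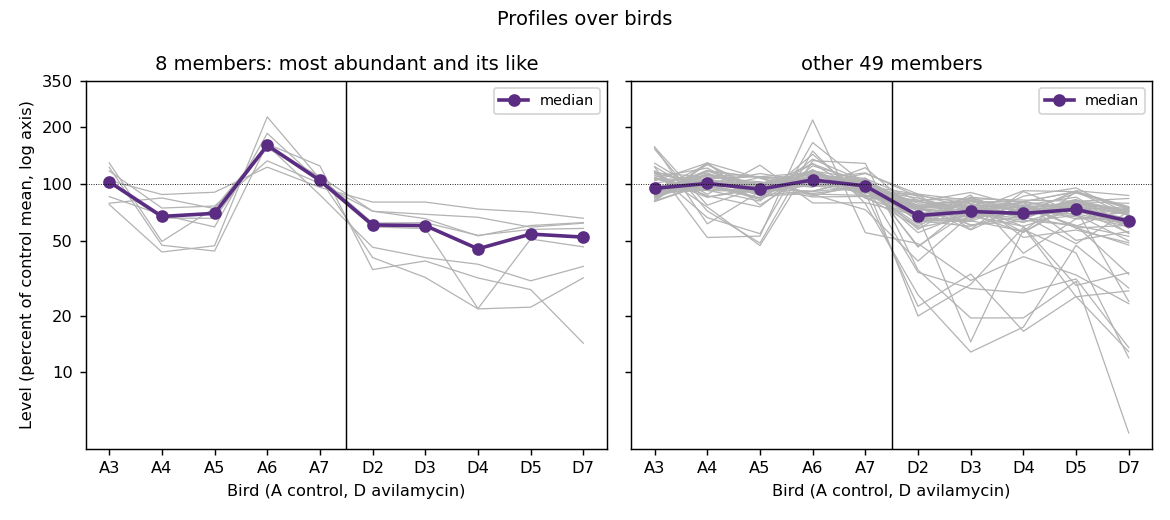
Level as percent of each member's control mean (log axis) in the 10 birds, for the most abundant member with the 7 that follow it within groups (left) and for the other 49 members (right); grey lines are members and the purple line is their median. On the left the median runs from 67.1% in A4 to 160% in A6 among control birds, while on the right it stays between 93.6% and 105%.

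Birds also differed by a block of 19 genes, none of them a member, that exceeded 1 CPM in A4, A6, A7 and D7 and stayed below 0.1 CPM in the remaining 6. The block was summed at 155 to 170 CPM in these 4 and at 0.193 to 0.659 CPM in the others. Since 3 control birds had it but only 1 avilamycin bird, it was checked beside the members. With group in the model, edgeR's quasi-likelihood test called 327 of 16362 genes (2.0%) between birds with and without the block. Of these genes 33 were higher and 294 lower in birds with the block, and the cause was not tested. Of the 57 members 0 were called, with a smallest adjusted p of 0.527, and 3 had an unadjusted p under 0.05 (5.26%, against 7.39% of all genes). DESeq2 in the same model also called 0 members. The block is present in birds of both groups, so a gene that differs strongly with it tends to overlap between the groups. The rule leaves such genes out, so few calls among members are favoured by their choice and nothing is read from them. The log2 difference between birds with and without the block had a median of 0.001 over the members, from -0.999 to 0.72, and 28 of 57 were below 0. This rests on D7, the only avilamycin bird with the block. Without D7 the median was 0.11 over the members and 0.01 over all genes, and 11 of 57 were below 0. That fit compares control birds A4, A6 and A7 with A3 and A5 only. The shares of all genes below 0 were not taken. Among control birds alone, those with the block had the higher mean for 46 members and the lower for 11. The median ratio was 1.083 against 1.015 over the genes of the range, where the count was not taken. Bird A6 has the block and was the highest control bird for 26 members, which the ratio limit can favour. Nothing is read from the count of 46.

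The size of the group difference was also taken among birds alike in the block. The choice of the members fixes its direction and, by the ratio limit over the same birds, favours low ratios. The values are therefore a description. Among the 6 birds without it, A3 and A5 against D2 to D5, the ratio of means was at most 0.8 for 42 members, with a median of 0.722. Among the 4 birds with it, D7 against A4, A6 and A7, it was at most 0.8 for 55 members, with a median of 0.593, but there the avilamycin side is 1 bird. The ratio was lower among birds with the block for 53 of 57 members, and D7 was the lowest avilamycin bird for 22 members. The control sides differed too. A6, the highest control bird for 26 members, has the block, while A3 and A5, the lowest for 17 and 20 members, do not. The counts of 42, 55 and 53 members were not taken over the genes of the range. The difference between the ratios with and without the block was not tested.

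**Figure D5:**
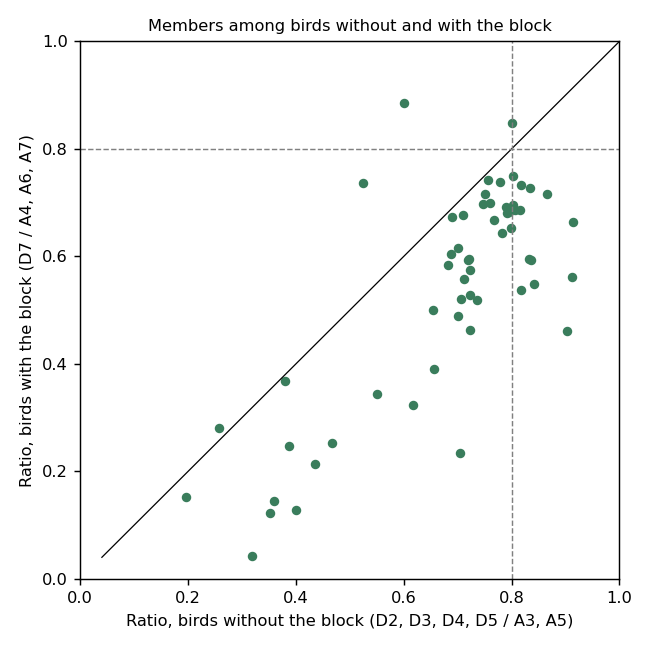
Ratio of the avilamycin mean to the control mean of each member among the 6 birds without the block of 19 genes (horizontal axis) and among the 4 birds with it (vertical axis); the solid line marks equal ratios and the dashed lines 0.8. Of the 57 points 53 lie below the solid line, and the vertical axis rests on D7 as its only avilamycin bird.

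With the mean log2 CPM of the block as a covariate, edgeR's log2 fold change between the groups had a median of -0.54 over the members, against -0.55 without it. The rule used this contrast, so negative values are favoured in both fits, and the part of the block was not settled by them. The largest shift of a member was 0.45, and 30 of 57 became more negative. Rank 10 by ratio had the largest negative difference with the block, -0.999, and its log2 fold change between groups went from -1.36 to -1.81.

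For the background of the rule, genes were also tested between the groups. Of 15516 genes edgeR's quasi-likelihood test called 0 (0%) between avilamycin and control, with 1721 at an unadjusted p under 0.05, and all 57 members had an unadjusted p under 0.05, which their choice from the same contrast favours. With the block as a covariate 1 gene was called, a member. DESeq2 called 97 genes lower in avilamycin birds, 0.452% of the 21471 genes with a fold change. The 21471 include any genes that DESeq2 left without an adjusted p. Of the 57 members 30 (52.6%) were among the 97. Nothing about the members is read from these counts, since the rule used this contrast.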

How the data were processed

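Total RNA of mid-ileum was sequenced after ribosomal RNA depletion with a strand-specific kit, per the labels' protocols. The authors deposited raw read counts per Ensembl gene ID for 20 libraries, whole numbers from 14079936 to 26708365 in total, and the second deposited file was identical and was not used. HTSeq 0.6.1, STAR, DESeq2, Trimmomatic 0.36 and SAMtools 1.7 appear, without roles, in the submitters' processing notes. These name galGal5, while the table is named for GRCg6a, so no coordinates are given. The sources used here do not say how strand was used in counting, so overlapping, antisense and near-identical genes are uncertain.

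The bird was the replicate: libraries of a bird were summed (31130907 to 45371754 counts). Levels are CPM of bird totals. Deviations within groups used log2(CPM + 0.5). Genes were tested with edgeR 4.0.16 in R 4.3.3 (filterByExpr, which kept all 57 members, TMM, quasi-likelihood, Benjamini-Hochberg, threshold 0.05), with DESeq2 1.42.0 as an alternative, and the code was tested on simulated data. Members, lists and tests were chosen with earlier results of these data known. IDs printed are the member with the lowest ratio and the most abundant one, because no IDs matched a symbol; the planned gene lists and marker lists could therefore not be applied. Ranks were used for all others. Alternatives were other scalings, filters and limits, each technical library alone, each bird left out and a block for bird number.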

Additional observations from a re-analysis of the deposited data

Results flagged for a closer look

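For the 10 members with the lowest ratios and the 5 most abundant ones, 26 sets of 5 birds were examined for a bird that stands apart, and 1 held one. In the member of rank 7 by ratio, avilamycin bird D4 was at 1.25 CPM and the next highest avilamycin bird at 0.620 CPM, which leaves 0.759 of the group's whole range between them. The rule for such a gap was set for about 1 in 20 sets of genes not chosen by their levels. No share measured over the genes of the range is given beside that rate. The rule used these same values, so that rate need not hold for members. Over all members, 7 of 114 sets (6.14%) held one, which is given as a description.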

How the results depend on the processing

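The number of genes that meet the rule was 53 with TMM and 55 with DESeq2 size factors, of which 47 and 48 were among the 57. It was 27 with a ratio limit of 0.67, 127 with no ratio limit, 22 with a mean of at least 10 CPM and 9 where all single libraries had to be apart. Technical library 1 alone gave 61 and library 2 alone 73, with 26 of the 57 in each. Without 1 bird it ranged from 63 to 210 (144 without A3, 86 without A4, 169 without A5, 86 without A7, 210 without D2, 99 without D3, 86 without D4, 93 without D5), since fewer birds are easier to part. Of the 57, between 52 and 57 still met it then. Groups that lie apart stay apart when 1 bird is left out, so a member could fail only by the ratio or level limit. The choice of the members fixes their direction. Over the alternatives, the log2 ratio of ENSGALG00000049923 was -2.43 to -1.94 and that of ENSGALG00000042151 -0.89 to -0.54, the smallest without A6.

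Genes called between the groups numbered 0 with edgeR, 195 with DESeq2 (98 higher, 97 lower), 1 with the block of 19 genes as a covariate, and 0 to 3 without 1 bird (2 without A3, 3 without D2, 1 without D4). At an unadjusted p under 0.05 edgeR gave 1721. With bird number as a replicate block (numbers 3, 4, 5 and 7) the count was 0 with 1383 genes at such a p, against 1519 in these birds unblocked; the deviations of birds with equal numbers had correlations of -0.034 to 0.083, which gives no pairing. Birds with the block against birds without gave 245 to 449 calls over all alternatives, 245 to 317 without 1 bird, and 0 members in each. The choice of the members favours few calls among them there. Technical library 2 against 1 gave 50 calls with DESeq2, 406 with no filter and 12 to 441 without 1 bird (441 without A3, 21 without A4, 378 without A5, 19 without A6, 22 without A7, 19 without D2, 12 without D3, 160 without D4, 201 without D5, 38 without D7). Between 0 and 4 members were among them. The causes were not tested.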
